A study of Homo sapiens with 4 samples.

Results

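The transcripts of 10 genes that report on the extracellular signal-regulated kinase (ERK) pathway were examined in U87 cells with and without knockdown of PTPRN. The genes were chosen by symbol from the deposited gene table, with earlier results of these data known. They are DUSP4, DUSP5, DUSP6, SPRY2, SPRY4, SPRED1, SPRED2, EGR1, ETV4 and ETV5. All 10 were among the 16595 genes that had a value above 0 in a library. U87 is a human malignant glioma cell line. RNA was sequenced in 4 libraries. Of these, 2 came from cells with a short hairpin RNA against PTPRN (titled PTP2 and taken as the shPTPRN-2 group of the study). The other 2 were titled SCR and taken as cells with a scrambled hairpin (shScr). The sequencing methods of the study name the controls only as U87 cells. On this reading of the titles, all 4 libraries carried a hairpin in the same line. Only 1 PTPRN hairpin was sequenced, and the labels do not say whether the replicates were separate cultures. The p-values therefore measure the spread between these libraries, which may be technical. The growth protocol in the labels names another line, hCMEC/D3, and a medium with epidermal and basic fibroblast growth factors, while the methods of the study give U87 in serum. Both growth factors and serum act upstream of ERK, and which medium these cultures had is not settled by the sources used here.

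ERK is the last kinase of a relay in which growth factor receptors activate RAS, RAS activates RAF kinases, RAF activates MEK and MEK phosphorylates ERK. Active ERK enters the nucleus and drives transcription factors, among whose target genes are several that shut the relay down again, so the amounts of these transcripts are widely read as pathway output. In glioma the relay is often driven by altered receptors or by loss of the RAS inhibitor NF1. The 10 genes fall into 3 roles: dual-specificity phosphatases that remove phosphate from ERK (DUSP4, DUSP5, DUSP6), Sprouty and SPRED proteins that act higher up, at the step to RAS or RAF (SPRY2, SPRY4, SPRED1, SPRED2), and transcription factors (EGR1, ETV4, ETV5). Only RNA was measured, and phosphorylation of ERK was not.

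Values were FPKM, fragments scaled to the length of the transcript and to the mapped fragments of the library, so levels of different genes may be set side by side. The depth was read from the steps between low values, since 1 read gives a fixed FPKM in a short gene with 1 transcript. It was about 18100000 to 19800000 reads per library, picked so that the low values lay closest to whole numbers of reads. At that depth 87.6% to 93.5% of the low values used lay within 0.2 reads of a whole number. This share is no independent check, since the depth was picked from the same values. PTPRN itself was at 12.1 and 11.7 FPKM with shPTPRN-2 and at 84.8 and 85.0 with shScr, a log2 fold change of -2.74 with a standard error (SE) of 0.03 (limma adjusted p = 0.000148). Of 11 endothelial markers with a value, PECAM1 and TEK reached 1 FPKM in a library, and the summed level of the markers was 4.03 to 4.77 FPKM in the 4 libraries. The glioma and neural markers VIM, CD44 and TNC were abundant, the lowest value being 151.56 FPKM for CD44, whereas GFAP and SOX2 stayed below 1 and S100B was at 0 to 0.05. Of these 10 markers 7 reached 1 FPKM, and their summed level, most of it VIM, was 5182 to 5382 FPKM with shPTPRN-2 and 2863 to 2942 FPKM with shScr. The list did not move as one, since TNC was at 263 and 269 FPKM with shPTPRN-2 against 684 and 689 with shScr, CHI3L1 at 31.0 and 29.7 against 93.5 and 87.9, and NES at 3.12 and 3.39 against 12.96 and 14.24. The part of these markers in the results was not tested. CDKN2A, which lies in a locus deleted in U87, had 0 to 0.05 FPKM. Of 5 myeloid markers with a value, CSF1R and LYZ reached 1 FPKM, with a summed level of 5.11 to 6.99 FPKM. In bulk RNA, a change in the share of cells that express a gene and a change in RNA per cell cannot be told apart.

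Knockdown of PTPRN was accompanied by higher transcripts of 9 of the 10 genes and lower transcripts of 1, DUSP4. Each gene passed an adjusted p of 0.05 (limma on log2(FPKM + 1), adjusted over all genes tested). SPRY2, SPRY4, DUSP6, ETV4 and DUSP5 rose at least 2-fold and passed an adjusted p of 0.001, and no member fell by as much. These limits are those of the study for a differential gene, applied here to the limma fit and not to the authors' own comparison. Many genes moved between these groups, so the counts are to be read against the whole table. Among all genes tested, 30.8% were higher and 27.1% lower at an adjusted p of 0.05, and among the 11272 genes with a mean of at least 1 FPKM, to which every member belongs, 41.1% were higher and 33.5% lower. The differential genes were 2.63% of all genes tested on the higher side and 4.06% on the lower side, and 3.79% and 5.78% of the genes with a mean of at least 1 FPKM. The median log2 fold change of the members was 0.92, against 0.06 over the genes with a mean of at least 1 FPKM and 0.01 over all genes tested. Since the members were chosen with earlier results of these data known, this comparison is a description. Both libraries of a group lay on one side of both libraries of the other for all 10 members, which was also so for 89.2% of the genes with a mean of at least 1 FPKM.

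**Figure D1:**
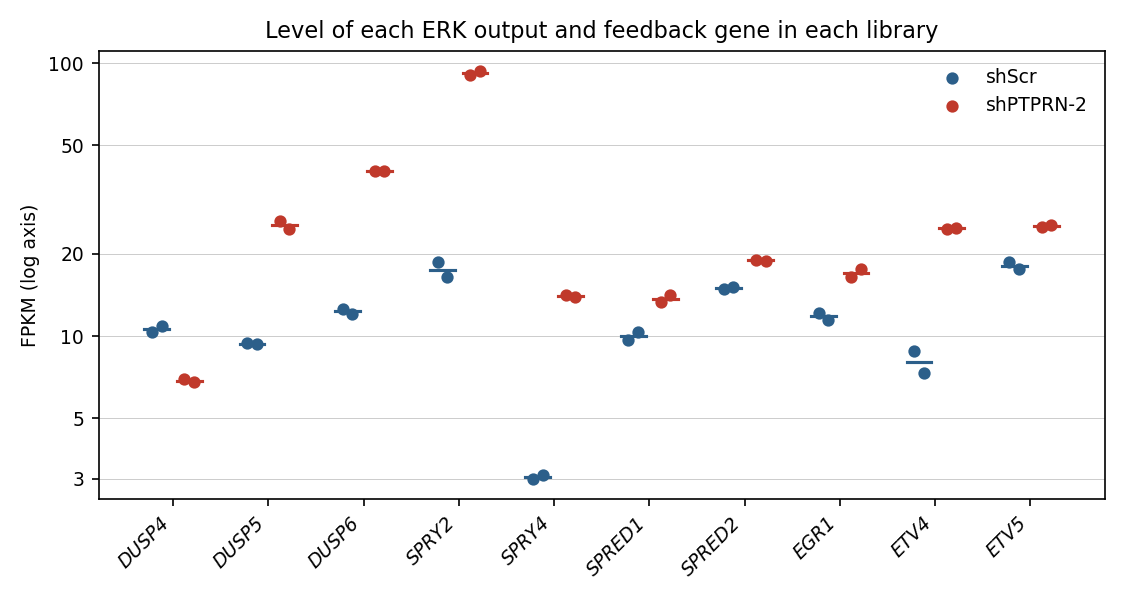
Level of the 10 genes in each library, in FPKM on a log axis. Points are libraries (2 shScr in blue, 2 shPTPRN-2 in red) and bars are group means. The red points lie above the blue ones for 9 genes and below them for DUSP4, with the widest gap for SPRY2.

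With shScr the members lay within a narrow band, from 3.06 FPKM for SPRY4 to 18.1 FPKM for ETV5 as group means. The order from the top was ETV5, SPRY2, SPRED2, DUSP6, EGR1, DUSP4, SPRED1, DUSP5, ETV4 and SPRY4. The library values of ETV5 and SPRY2 overlapped, as did those of DUSP6 and EGR1, and the other neighbours did not overlap. With shPTPRN-2 the band was wider, from 6.87 FPKM for DUSP4 to 91.9 FPKM for SPRY2. The order was then SPRY2, DUSP6, DUSP5, ETV5, ETV4, SPRED2, EGR1, SPRY4, SPRED1 and DUSP4, with overlap between DUSP5 and ETV5 and between SPRY4 and SPRED1. DUSP4 thus moved from the sixth place to the last, and SPRY4 from the last to the eighth. The 10 levels added up to 277 and 280.0 FPKM with shPTPRN-2 and to 118 and 114 FPKM with shScr.

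SPRY2 and SPRY4 had the largest changes of the members. They encode Sprouty proteins, which are induced by growth factor signaling and hold back activation of the relay below receptor tyrosine kinases. SPRY2 (Gene ID 10253) lies on the minus strand of chromosome 13, from 80335976 to 80341115 in the deposited table, whose positions are those of the human genome build GRCh38. Its level was 90.3 and 93.4 FPKM with shPTPRN-2 and 18.6 and 16.4 FPKM with shScr. Both knockdown libraries were thus about 5 times the controls, with a log2 fold change of 2.33 (SE 0.07, limma adjusted p = 0.000343). This ranked 52nd from the top of the 11272 genes with a mean of at least 1 FPKM. SPRY4 (Gene ID 81848) lies on the minus strand of chromosome 5, from 142310427 to 142325055. It was the member with the lowest control level, at 3.01 and 3.11 FPKM, and had 14.1 and 13.9 FPKM with shPTPRN-2. The replicates of each group were close together and the groups far apart, with a log2 fold change of 1.88 (SE 0.03, limma adjusted p = 0.000172). At this level the pseudocount of 1 shrinks the change, and the ratio of the mean FPKM values was 4.57. The ratio of SPRY2 to SPRY4 within a library, on which library scaling has nearly no bearing, was 2.60 and 2.67 on the log2 scale with shPTPRN-2 and 2.29 and 2.08 with shScr. The groups did not overlap and the means differed by 0.44, but an exact two-sided permutation test with 2 libraries against 2 cannot give less than p = 0.333. The size of this difference depended on the pseudocount and was 0.23 with a pseudocount of 0.1.

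SPRED1 and SPRED2 moved little beside the Sprouty genes. They encode related membrane-bound proteins, and SPRED1 brings the RAS inhibitor NF1 to the membrane. SPRED1 (Gene ID 161742) lies on the plus strand of chromosome 15, from 38252851 to 38357249, and SPRED2 (Gene ID 200734) on the minus strand of chromosome 2, from 65310851 to 65432522. SPRED1 had 13.3 and 14.2 FPKM with shPTPRN-2 and 9.70 and 10.3 FPKM with shScr. Its log2 fold change was 0.42 (SE 0.05, limma adjusted p = 0.00460). SPRED2 had 19.0 and 18.9 FPKM with shPTPRN-2 and 14.8 and 15.1 FPKM with shScr, a log2 fold change of 0.32 (SE 0.03, limma adjusted p = 0.00224). Both rose by less than 1.4-fold and lay at the percentiles 75.6 and 69.4 of the change over genes with a mean of at least 1 FPKM. SPRED1 was thus just above and SPRED2 below the upper quartile of these genes, 0.41. The third gene of the family, SPRED3, was not a member and had 8.57 and 9.41 FPKM against 4.13 and 4.78, a log2 fold change of 0.87 (SE 0.08, limma adjusted p = 0.00244). With SPRED1 the call rested on each of 3 libraries, since the adjusted p was 0.0536 to 0.0669 when shPTPRN-2 replicate 2 or either shScr library was left out. SPRED3 lost its call without shPTPRN-2 replicate 2 (limma adjusted p = 0.0574). The log2 ratio of SPRED1 to SPRED2 was -0.49 and -0.39 with shPTPRN-2 and -0.57 and -0.51 with shScr, and the means differed by 0.10 (exact permutation p = 0.333), or by 0.051 without shPTPRN-2 replicate 2.

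The 3 ERK phosphatases split in direction. DUSP6 is a cytoplasmic phosphatase with a strong preference for ERK, DUSP5 acts on ERK in the nucleus, and DUSP4 is a nuclear phosphatase that acts on ERK and also on other MAP kinases. DUSP6 (Gene ID 1848) lies on the minus strand of chromosome 12, from 89347825 to 89352859. It had 40.1 and 40.2 FPKM with shPTPRN-2 and 12.6 and 12.1 FPKM with shScr, so the spread within each group was below 1 FPKM and the groups were about 3-fold apart (log2 fold change 1.63, SE 0.03, limma adjusted p = 0.000242). In the GENCODE 29 annotation the antisense transcript AC024909.2 shares 1463 exonic bases with DUSP6, and whether reads were assigned by strand is not given in the sources used here, so reads of the pair cannot be told apart. DUSP5 (Gene ID 1847), on the plus strand of chromosome 10 from 110497867 to 110511544, had 26.4 and 24.6 FPKM with shPTPRN-2 and 9.42 and 9.33 FPKM with shScr. Its log2 fold change was 1.35 (SE 0.05, limma adjusted p = 0.000376). DUSP4 (Gene ID 1846) lies on the minus strand of chromosome 8, from 29333062 to 29350750. It had 6.96 and 6.77 FPKM with shPTPRN-2 and 10.4 and 10.9 FPKM with shScr, so that both knockdown libraries were below both controls. The log2 fold change was -0.56 (SE 0.04, limma adjusted p = 0.00121), which lay at percentile 15.6 of the genes with a mean of at least 1 FPKM.

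The split is most direct as a ratio within each library. DUSP4 and DUSP6 were at similar levels with shScr, with log2 ratios of DUSP4 to DUSP6 of -0.26 and -0.14. With shPTPRN-2 the ratios were -2.37 and -2.41, a shift of -2.19 on the log2 scale, against standard deviations of 0.03 and 0.08 within the groups. The ratio of DUSP5 to DUSP6 was -0.59 and -0.69 with shPTPRN-2 and -0.38 and -0.34 with shScr, a shift of -0.28. Of the 5 ratios computed, each was apart between the groups, SPRED1 to SPRED2 only narrowly (nearest values -0.49 and -0.51). The libraries of the groups also did not overlap for 89.2% of single genes with a mean of at least 1 FPKM. No such share was computed for ratios. Each ratio gave the smallest exact permutation p the design allows, 0.333 before and after adjustment over the 5. DUSP1, DUSP8, DUSP10 and DUSP16, phosphatases that act mainly on the stress kinases p38 and JNK, did not move in one direction either (median log2 fold change 0.29). DUSP1 had 72.5 and 70.0 FPKM against 44.3 and 44.3 (log2 fold change 0.67, limma adjusted p = 0.000641), and DUSP16 rose by 0.53 (limma adjusted p = 0.000739), while DUSP8, named after its values were seen as the remaining call, fell by 0.47 (limma adjusted p = 0.00522). DUSP8 lost its call without shPTPRN-2 replicate 1 (limma adjusted p = 0.0866) or 2 (0.0878), and the fourth, DUSP10, did not pass.

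Among the transcription factors, ETV4 rose to the level of ETV5. Both encode ETS factors of the PEA3 group, which bind DNA downstream of fibroblast growth factor and ERK signaling. ETV4 (Gene ID 2118), on the minus strand of chromosome 17 from 43527843 to 43546432, had 24.8 and 24.9 FPKM with shPTPRN-2 and 8.80 and 7.33 FPKM with shScr. The control libraries were the pair furthest apart of any member, by 18.2% of their mean, and still far below the knockdown libraries, with a log2 fold change of 1.51 (SE 0.09, limma adjusted p = 0.000891). ETV5 (Gene ID 2119), on the minus strand of chromosome 3 from 186046317 to 186109112, had 25.1 and 25.6 FPKM against 18.6 and 17.6 FPKM, a log2 fold change of 0.47 (SE 0.04, limma adjusted p = 0.00219). The log2 ratio of ETV4 to ETV5 was -0.02 and -0.04 with shPTPRN-2 and -1.0 and -1.16 with shScr, a shift of 1.05. The third gene of the PEA3 group, ETV1, was named after its values were seen and went the other way, from 20.4 and 21.7 FPKM with shScr to 14.8 and 15.5 FPKM with shPTPRN-2 (log2 fold change -0.45, limma adjusted p = 0.00334). The ETV1 call was lost without shPTPRN-2 replicate 1 (limma adjusted p = 0.0577) or 2 (0.0501). In GENCODE 29, 68 exonic bases of ETV4 overlap DHX8 on the other strand, and 164 exonic bases of ETV5 overlap DGKG on the same strand.

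EGR1, a zinc finger factor whose gene is transcribed within minutes of ERK activation, rose modestly. EGR1 (Gene ID 1958) lies on the plus strand of chromosome 5, from 138465492 to 138469315. It had 16.5 and 17.6 FPKM with shPTPRN-2 and 12.2 and 11.5 FPKM with shScr. The groups did not overlap, with a log2 fold change of 0.49 (SE 0.05, limma adjusted p = 0.00317) at percentile 79.8 of the genes with a mean of at least 1 FPKM. For the members with 1 annotated transcript (EGR1, DUSP5, SPRED1 and ETV5) the levels amount to about 420 to 1880 reads per library, which gives a counting error of 2.3% to 4.9% of the value and covers no other source of spread. The calls of EGR1 and ETV5 at 0.05 were close to the limit when a library was left out. EGR1 had an adjusted p of 0.0512 without shScr replicate 1 and 0.0595 without shScr replicate 2, and ETV5 had 0.0502 without shPTPRN-2 replicate 2 (limma).

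The promoters of the genes with the largest rises and of EGR1 are shown to set the members' regulatory sequence beside their changes. RefSeq (GRCh38.p14) gave windows for 6 of the 10 members, and DUSP4, DUSP5, ETV4 and ETV5 had none in the table used. Each sequence is the 250 bases before a start annotated by RefSeq, written 5′ to 3′ on the strand of the gene, for EGR1 chr5:138465229-138465478 (plus), for SPRY2 chr13:80341127-80341376 (minus), for SPRY4 chr5:142324248-142324497 (minus) and for DUSP6 chr12:89352502-89352751 (minus). SPRY2 has several annotated starts, of which 1 is shown, and the windows of SPRY4 and DUSP6 lie inside the gene spans of the deposited table, which begin further upstream. Capitals mark matches to the motifs searched, CArG boxes in EGR1 and an EGR motif in SPRY2.
EGR1: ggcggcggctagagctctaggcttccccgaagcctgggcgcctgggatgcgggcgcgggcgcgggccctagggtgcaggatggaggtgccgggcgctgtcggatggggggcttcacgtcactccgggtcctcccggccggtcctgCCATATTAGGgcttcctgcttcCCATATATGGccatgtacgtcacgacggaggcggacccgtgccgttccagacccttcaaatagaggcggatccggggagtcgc
SPRY2: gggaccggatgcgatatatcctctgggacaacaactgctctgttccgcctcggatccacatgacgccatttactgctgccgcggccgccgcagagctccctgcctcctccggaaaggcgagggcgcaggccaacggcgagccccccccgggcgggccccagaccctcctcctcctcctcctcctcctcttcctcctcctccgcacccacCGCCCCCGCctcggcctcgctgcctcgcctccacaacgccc
SPRY4: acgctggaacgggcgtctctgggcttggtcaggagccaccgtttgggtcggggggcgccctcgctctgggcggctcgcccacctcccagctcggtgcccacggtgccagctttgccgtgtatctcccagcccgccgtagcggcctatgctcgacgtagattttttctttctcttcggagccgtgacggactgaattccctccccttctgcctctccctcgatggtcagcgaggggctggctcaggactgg
DUSP6: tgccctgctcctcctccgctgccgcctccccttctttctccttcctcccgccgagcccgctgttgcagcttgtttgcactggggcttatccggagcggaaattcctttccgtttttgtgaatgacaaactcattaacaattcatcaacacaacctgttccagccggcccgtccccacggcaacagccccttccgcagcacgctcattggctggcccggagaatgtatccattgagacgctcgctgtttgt
The motifs searched on both strands were the cyclic AMP response element TGACGTCA, the AP-1 motif TGANTCA, the ETS motif CCGGAAGT, the EGR motif GCGGGGGCG and the CArG box, the site of serum response factor (SRF). EGR1 held 2 CArG boxes, from 105 to 96 and from 83 to 74 bases before the start, and 1.16% of the 35116 promoter windows in the table held one. SPRY2 held the EGR motif on the reverse strand, from 41 to 33 bases before the start, as did 4.72% of all windows at any place. The other 3 motifs, present in 1.65% (TGACGTCA), 6.57% (TGANTCA) and 3.42% (CCGGAAGT) of all windows, had no match in the 9 windows of the members. A match describes the letters of the window and is not evidence of binding in these cells.

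**Figure D2:**
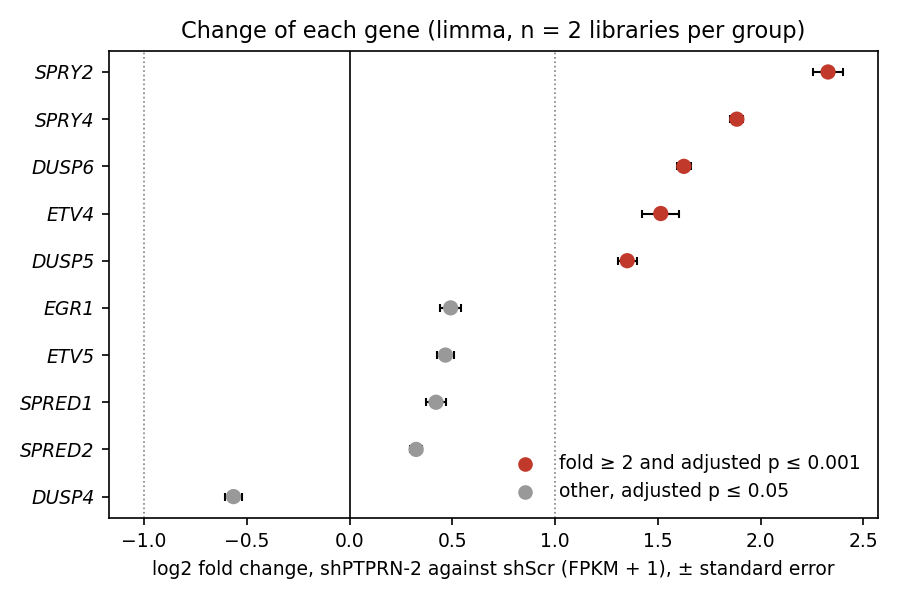
Log2 fold change of each member, shPTPRN-2 against shScr on log2(FPKM + 1), with the standard error from limma (2 libraries per group) and dotted lines at a 2-fold change. SPRY2, SPRY4, DUSP6, ETV4 and DUSP5 lie between 1.35 and 2.33, EGR1, ETV5, SPRED1 and SPRED2 between 0.32 and 0.49, and DUSP4 at -0.56.

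The changes of the members thus lay in separate ranges. SPRY2, SPRY4, DUSP6, ETV4 and DUSP5 had log2 fold changes of 1.35 to 2.33, at the percentiles 98.1 to 99.5 of the genes with a mean of at least 1 FPKM. EGR1, ETV5, SPRED1 and SPRED2 had 0.32 to 0.49, at the percentiles 69.4 to 79.8, and no member lay between the ranges. The middle 50% of those genes ran from -0.33 to 0.41. The call as differential rested on a strict p in a small design. The log2 fold changes of the same 5 genes stayed at or above 1 in all 12 alternative settings, but none of them passed an adjusted p of 0.001 in limma with a pseudocount of 0.1 or with any library left out, and in these fits no gene of the whole table did.

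**Figure D3:**
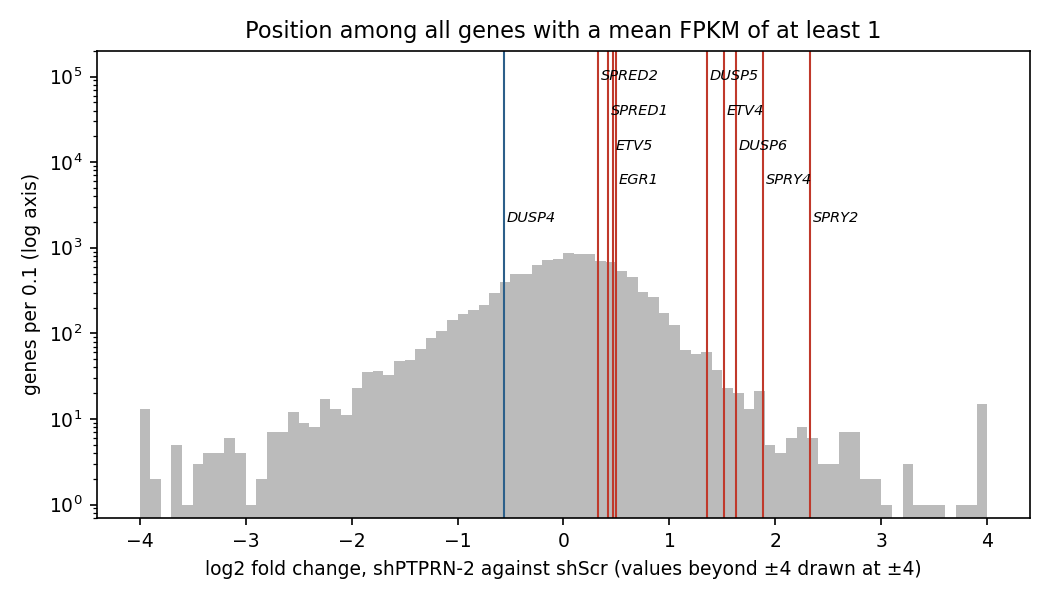
Distribution of the log2 fold change over the 11272 genes with a mean of at least 1 FPKM (grey, number of genes per 0.1 on a log axis), with a line at each member (red where higher with shPTPRN-2, blue where lower). SPRY2, SPRY4, DUSP6, ETV4 and DUSP5 stand in the upper tail, and the other members stand within the bulk.

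The wider pathway was described with 6 lists of 74 genes, of which 73 had a value. Like the members, the lists were chosen with earlier results of these data known. Their counts are to be read against all genes tested, of which 30.8% were higher and 27.1% lower at an adjusted p of 0.05. The shares were 41.1% and 33.5% among the genes with a mean of at least 1 FPKM. In the core cascade the calls went both ways. Of 16 genes from RAS activation to ERK, 5 were higher, 4 lower and 7 did not pass an adjusted p of 0.05, none was differential, and the median log2 fold change was 0.09. MAP2K1, which encodes MEK1, had 60.3 and 59.5 FPKM against 41.8 and 43.1 (log2 fold change 0.49, limma adjusted p = 0.00114), whereas MAP2K2, which encodes MEK2, had 137 and 132 FPKM against 180 and 178 (-0.41, limma adjusted p = 0.00181). BRAF had a log2 fold change of 0.17 (limma adjusted p = 0.0847) that passed with the filter on low values (0.0399) and with quantile normalization (0.0372). MAPK3, which encodes ERK1, had 49.6 and 46.3 FPKM against 60.5 and 58.6 (log2 fold change -0.31, limma adjusted p = 0.00989), and lost its call without shPTPRN-2 replicate 2 (0.0567), shScr replicate 1 (0.114) or shScr replicate 2 (0.0941). SOS2, an exchange factor that loads RAS with GTP, had the largest change of the cascade list, from 6.41 and 6.49 FPKM to 3.98 and 3.89 (log2 fold change -0.59, limma adjusted p = 0.000662).

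Other targets of the pathway moved mostly upward. Of 14 other output genes, 10 were higher and 4 lower at 0.05, 7 and 1 of them differential, with a median of 0.91. All 14 had a mean of at least 1 FPKM. Over all such genes 41.1% were higher and 33.5% lower, and 3.79% and 5.78% were differential. The largest rise was that of VGF, a secreted neuropeptide precursor (16.0 and 16.1 FPKM against 0.69 and 0.86, log2 fold change 3.27, limma adjusted p = 0.000188). Its shScr level was below 1 FPKM, and the log2 fold change was 4.21 with a pseudocount of 0.1. Next came LIF, a cytokine of the interleukin 6 family (63.4 and 66.4 against 10.4 and 10.3, 2.54, limma adjusted p = 0.000155). FOSL1, an AP-1 subunit (566 and 584 against 117 and 115, 2.30, limma adjusted p = 0.000153), and HMGA2, a chromatin protein (114 and 120 against 32.7 and 32.3, 1.81, limma adjusted p = 0.000242), followed. The 4 lower genes, named after their values were seen, were EPHA2 (log2 fold change -1.18, limma adjusted p = 0.000421), IER3 (-0.91, 0.000685), ETV1 (-0.45) and EPHA4 (-0.21, 0.0447). EPHA4 was at the limit and lost its call without any one of the 4 libraries (limma adjusted p = 0.102 to 0.238). IER3, an immediate early gene, fell from 983 and 918 FPKM to 511 and 500.0 FPKM. The list of 12 immediate early genes, which are transcribed at once after a stimulus, left out IER3, which stood among the other output genes. Of the 12, 9 were higher and 0 lower, and 3 did not pass in limma. The shares were 30.8% and 27.1% of all genes tested. Among the genes with a mean of at least 1 FPKM, which 10 of the 12 had, they were 41.1% and 33.5%. The median was 0.61 and 4 genes were differential. These were ARC (log2 fold change 1.63, limma adjusted p = 0.000463), ATF3 (1.54, 0.000442), NR4A1 (1.41, 0.000627) and FOSB (1.31, 0.000945), all below 24 FPKM in every library. NR4A1 and FOSB had shScr means of 0.595 and 0.45 FPKM, and their log2 fold changes were 2.28 and 2.31 with a pseudocount of 0.1. With that pseudocount and an eBayes trend they were no longer differential (limma adjusted p = 0.0015 and 0.00223).

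The other inhibitors and the nuclear effectors had medians near that of the table. Of 14 other inhibitors of the pathway with a value, 11 had a mean of at least 1 FPKM. Of the 14, 3 were higher, 6 lower and 5 did not pass, with a median of -0.05. ERRFI1, a feedback inhibitor of the EGF receptor, was the differential one and had 281 and 279 FPKM against 88.2 and 90.3 (log2 fold change 1.64, limma adjusted p = 0.000202), next to the change of DUSP6. SPRY1, a Sprouty gene outside the members and named after its values were seen, was at 0.17 and 0.16 FPKM with shPTPRN-2 and at 0.49 and 0.46 with shScr. DAB2IP, also named after its values were seen, was at 0.21 and 0.21 against 0.84 and 0.81 FPKM. Both were among the 6 lower calls and below 1 FPKM in every library. Of 13 nuclear effectors, 5 were higher, 3 lower and 5 did not pass, with a median of 0.00. SRF, whose protein binds the CArG box with ELK factors, had 9.02 and 9.98 FPKM against 16.6 and 16.3 (log2 fold change -0.73, limma adjusted p = 0.00157), with an adjusted p of 0.0545 and 0.0517 when shScr replicate 1 or 2 was left out. MKNK2, a kinase activated by ERK, rose by 0.64 (limma adjusted p = 0.000692). The deposited annotation assigned 343 of the tested genes to the KEGG MAPK signaling pathway, a list used after the data had been seen. Among these 105 were higher, 99 lower and 139 did not pass, with a median of 0.01. These counts were near the shares over all genes tested, 30.8% higher and 27.1% lower. DUSP4, DUSP5 and DUSP6 were the 3 members this list held.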

How the data were processed

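RNA of 2 shPTPRN-2 and 2 shScr libraries of U87 cells was sequenced on a BGISEQ-500, 50 bases from one end. Per library, the authors deposited 1 FPKM value per gene, rounded to 2 decimals, with identical values in both tables. The submitters' processing notes name HISAT2 (2.1.0) and the build hg19, while the gene positions in the table overlap the GRCh38 genes of GENCODE 29 and RefSeq for all 10 members. The counting program and annotation release are not given in the sources used here. The fold changes and p-values of the authors' own comparisons, also deposited, were not used.

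All 16595 genes above 0 in at least 1 library were fitted with limma (version 3.58.1, R 4.3.3; lmFit and eBayes with default options) on log2(FPKM + 1) without covariates, and p-values were adjusted by Benjamini-Hochberg over all of them. The fit was tested on simulated data. Calls used an adjusted p limit of 0.05. Differential genes also changed 2-fold or more, with a limit of 0.001. Read counts were not analysed, so no count model was used. Depth was estimated from genes with 1 transcript of 300 to 1200 bases. Ratios of members within libraries were compared with an exact permutation test. Lists are described by counts and medians, with no set test. The members and lists were chosen with earlier results of these data known. Named genes are the members, PTPRN, kinases of the core cascade (some of which are not reported here), and from each list up to 4 differential genes of largest change with a mean of at least 1 FPKM in the higher group, or the 2 largest called changes where fewer than 2 were differential; others are named as chosen after their values were seen. Alternatives were a pseudocount of 0.1, alone and with an eBayes trend, a floor of 1 FPKM in at least 2 libraries, a block for replicate number, quantile normalization, median-ratio scaling, an eBayes trend, leaving out each library and, added after seeing the data, removal of the trend on transcript length.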

Additional observations from a re-analysis of the deposited data

How the results depend on the processing

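The direction of all 10 members was the same under all 12 alternatives, and the log2 fold change ranged from 2.24 to 2.41 for SPRY2 and from -0.62 to -0.51 for DUSP4. At an adjusted p of 0.05, 9 members were higher and 1 lower in limma, and with each library left out in turn 7 to 9 were higher. The 5 differential members became 0 with a pseudocount of 0.1, with the replicate block and with each library left out (0 to 0). The 437 higher and 674 lower differential genes of the whole table also became 0 in these fits, where 10185, 10108 and 8700 to 8790 genes had an unadjusted p under 0.05 in limma, and 5 members kept a fold change of at least 2. Adding an eBayes trend to that pseudocount gave 5 differential members again. With each library left out, 3275 to 3375 genes were higher and 2884 to 2957 lower at 0.05, and 11 to 13 genes of the wider lists were lower (18 with all libraries, 11 without shPTPRN-2 replicate 2). The loss of a library leaves a group with a lone sample, which is assumed to vary like the other group. Between libraries of equal replicate number, deviations from the group means correlated at 0.06 across genes. A small effect shared by a pair would not show in this value, so pairing is not settled. The block left all 10 calls at 0.05. The PTPRN fall stayed past 0.05 in limma under all 12 alternatives. Over genes with a mean of at least 1 FPKM, the median log2 fold change was 0.06 as deposited, 0.04 with quantile normalization and 0.02 with median-ratio scaling.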
